A study of Mus musculus with 9 samples.

Results

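The chromatin remodelers are the genes of the Chd family, the Smarc genes, Arid1a, Arid1b, Arid2, Actl6a, Actl6b, the Ino80, Baz1 and Baz2 genes and Bptf, chosen by gene symbol alone. The rule named 38 genes among the 27095 loci of the deposited RNA-seq table, and 37 of them had a mean FPKM of at least 1 over the groups. FPKM are fragments scaled to exon length and to the mapped fragments of the libraries, so levels can be compared between genes. The remaining gene, the pseudogene Smarca5-ps, stood at 0.139 FPKM in controls, 0.105 in the unaffected and 0.126 in the affected group and is not counted below.

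The animals were 9 wild-type C57BL/6 mouse fetuses taken on gestational day 17, with 3 in each of 3 groups. Control dams received an intraperitoneal injection of lactated Ringer's solution early in gestation, and the other dams received EtOH by the same route. EtOH-exposed fetuses with ocular and cortical patterning defects make up the affected group, and exposed fetuses scored as free of them make up the unaffected group. The sample labels name the tissue as fetal brain and the methods as cortex. Within the exposed animals the groups were formed by the outcome and not by the treatment.

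The table holds a single pooled value per group and no value for any single fetus. No replicate error, interval or test over fetuses could be computed from these pooled values. The authors' own test columns were not used, and every ratio below is a description of 2 pooled values. A gene is called higher or lower when the log2 ratio of its group FPKM is at least 0.32 in size, which is the fold limit named below. The 3 comparisons share their groups and are not independent of each other.

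ATP-dependent remodelers slide, evict or exchange nucleosomes, and so set how accessible DNA is to transcription factors. The Chd proteins carry chromodomains that read histone tails, and several of them power the NuRD deacetylase complex. BAF complexes are built around Smarca2 or Smarca4 and swap subunits as neural progenitors become neurons. ISWI ATPases space nucleosomes, and the INO80 complex exchanges histone variants. Many of these genes are mutated in human neurodevelopmental disorders.

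The tissue carried the markers of fetal cortex. Neurod6, a transcription factor of cortical projection neurons, was at 409 FPKM in control fetuses, 378 in unaffected ones and 416 in affected ones. Summed over 10 markers of postmitotic cortical neurons, the groups held 3948, 3864 and 3841 FPKM in the same order. That sum is mostly Tubb3 and Stmn2, and by gene 5 of the 10 were higher and 1 lower in affected than in unaffected offspring, with a median log2 ratio of 0.24. Among these, Tbr1 had a ratio of 0.66, Dcx one of 0.62 and Neurod2 one of 0.53, and 3 of the 10 were past the fold limit with the length trend described below subtracted. The 10 progenitor markers summed to 2523, 2685 and 1934 FPKM, but Fabp7 alone went from 2015 to 1352 FPKM between control and affected offspring. The other 9 summed to 508, 534 and 581 FPKM, and the median log2 ratio of the 10 was 0.25, with 3 higher and 2 lower in affected than in control offspring. The markers of dividing cells summed to 277, 320 and 286 FPKM, and those of ventral telencephalon to 189, 223 and 202. Pcna alone held 147, 168 and 135 FPKM of the first sum. Of the 10 dividing markers 2 were higher than in control, and 2 were higher and 1 lower than in unaffected offspring. Of the 8 ventral markers 1 was higher than in control and 2 lower than in unaffected offspring. In unaffected against control offspring 2 ventral markers were higher. Cells from outside the cortex were also present. Choroid plexus markers came to 997 FPKM in controls, 1323 in the unaffected and 1111 in the affected group. Ttr alone held 970, 1291 and 1077 FPKM of these sums. By gene, 1 of the 6 was higher in affected offspring in each comparison, Clic6 at log2 ratios of 0.89 and 0.63. After subtraction of the length trend 2 were past the limit against control and 1 against unaffected. The blood loci, including Slc4a1 with a mean FPKM under 1, summed to 457, 596 and 371 FPKM. Of the 4 with a mean FPKM of at least 1, all 4 were higher in unaffected than in control offspring. All 4 were lower in affected than in unaffected offspring. The blood transcripts are short, and 2 of the 4 were past the fold limit in each of these comparisons after subtraction of the length trend, with the median between affected and unaffected offspring going from -0.69 to -0.28. Endothelial markers summed to 59.9, 60.03 and 63.6 FPKM, and 2 of 5 were higher in affected than in control and 3 of 5 higher than in unaffected offspring, with median log2 ratios of 0.28 and 0.47 and 2 past the limit in each after subtraction. Of the 6 microglia markers 2 were lower than in control, and 1 was higher and 3 lower than in unaffected offspring. Of the 6 markers of meninges 1 was lower than in control and 2 lower than in unaffected offspring. The part of these differences in the results on remodelers was not tested. In a bulk tissue, fewer cells of a type and less RNA per cell cannot be told apart.

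Remodeler genes spanned a wide range of levels. Smarce1 and Smarcb1, core BAF subunits, led the list at 131 and 128 FPKM in control offspring, followed by Actl6b at 106 FPKM, Smarca2 at 104 FPKM and Smarcd3 at 101 FPKM. The Chd genes ranged from 2.96 FPKM for Chd7 to 66.6 FPKM for Chd3. ISWI genes ranged from 1.87 to 23.6 FPKM and INO80 genes from 1.82 to 45.7 FPKM in control offspring. The BAF subunits ran from 5.51 FPKM for Smarcd2 to 131 FPKM for Smarce1, so they held the highest levels but overlapped with the other roles. The Baz1a and Ino80d mRNAs were the scarcest.

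**Figure D1:**
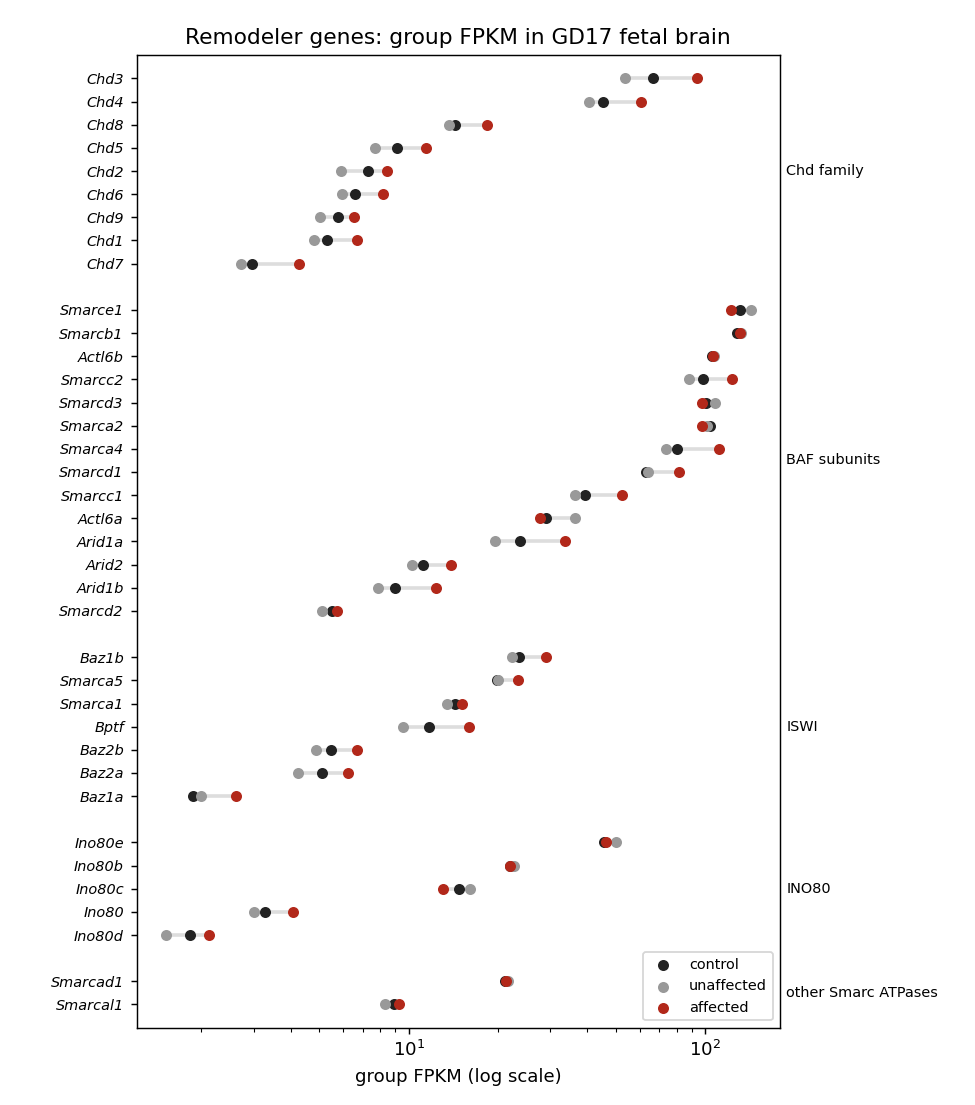
Group FPKM of the 37 remodeler genes (horizontal log axis), 1 point each for control, unaffected and affected offspring, ordered within each role by mean level; no error is available because each point is a single pooled value. The affected point lies to the right of both others for every Chd gene, while Smarce1, Smarcd3, Smarca2, Actl6a, Ino80c and, narrowly, Ino80b have it on the left.

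Compared with control, affected offspring had 14 of the 37 genes higher and 0 lower, with a median log2 ratio of 0.30. Over the 15455 loci with a mean FPKM of at least 1, 12.6% were higher and 11.5% lower, and the median was 0.02. Compared with unaffected offspring, affected offspring had 23 genes higher and 1 lower, with a median log2 ratio of 0.42. The background of that comparison was 20.7% higher and 18.5% lower, with a median of 0.01. Between unaffected and control offspring 0 genes were higher and 0 lower, beside 5.53% and 6.99% of all loci, and the median was -0.11.

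**Figure D2:**
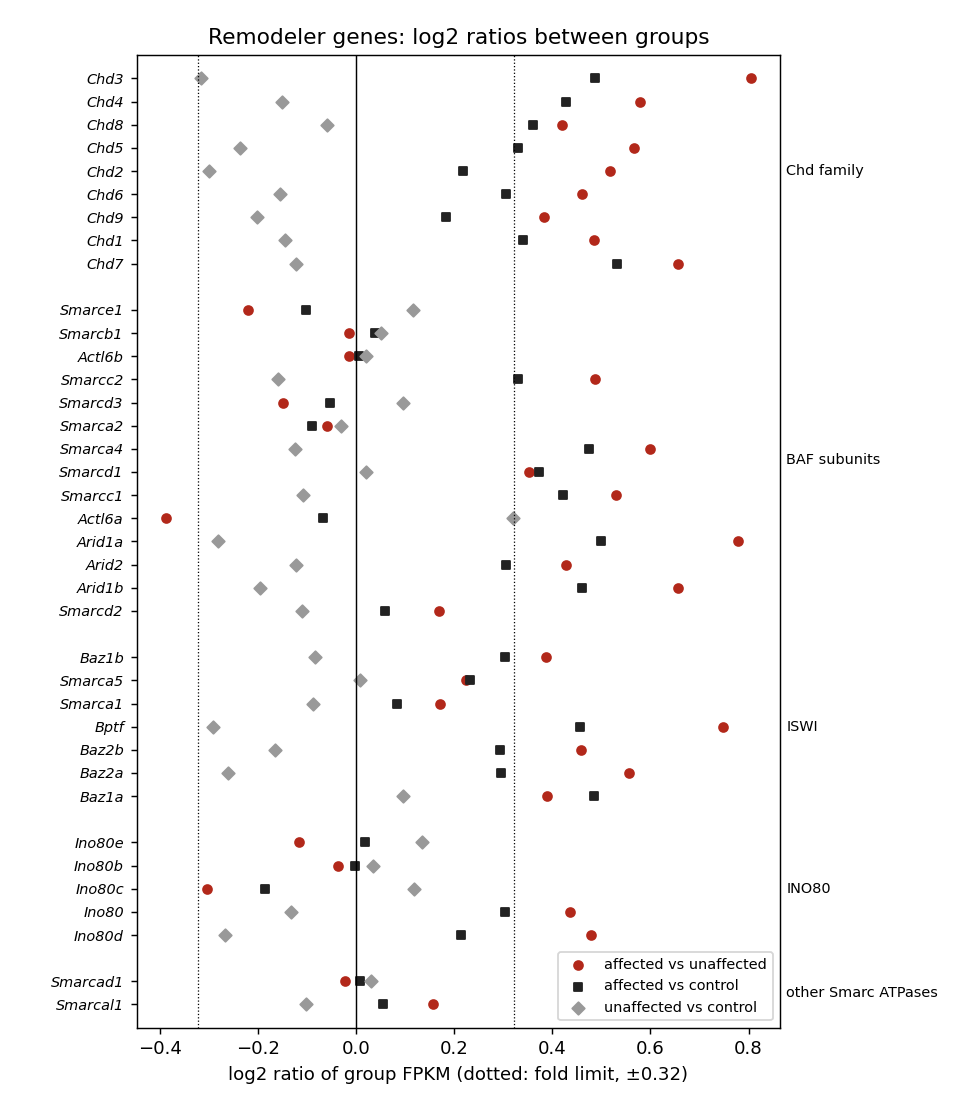
Log2 ratio of group FPKM for each remodeler gene in the 3 comparisons, with dotted lines at the fold limit; each point is the ratio of 2 pooled values and carries no error. In affected offspring the Chd genes all lie to the right of 0 in both comparisons, and in unaffected offspring they all lie to the left of 0.

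The promoters of these genes were read from the RefSeq set for GRCm38.p6, which is the build of the table, as the 250 bases before the annotated start. A window was found for 28 of the 37 genes. The annotated starts of Baz2b, Smarcd3, Smarcd2 and Ino80e lie 35772, 22409, 5340 and 2750 bases from the upstream end of the measured locus. Their windows are counted below all the same. Median GC content was 66.6% in these and 52.4% in all 32851 windows, and the median number of CpG dinucleotides was 20.5 and 6. The GC box GGGCGG, the core of the Sp-factor motif, was sought on both strands. It was present in 23 of the 28 windows (82.1%) and in 32.7% of all windows. The letters CCAAT were in 35.7% and 33.8%, and TATAAA in 7.14% and 12.4%. The motif letters CCGGAAG, an ETS core, were in 10.7% and 6.91%, and the E box CACGTG in 7.14% and 6.02%. The set of all windows covers every kind of annotated gene, and these matches are letters only.

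Of the 37 genes, 5 have their windows shown to set genes with high ratios in affected offspring beside genes with ratios near 0. They are taken from those that start within 100 bases of the locus and overlap no annotated exon. Smarca4, Bptf and Chd5 had the highest log2 ratios against control among them, and Smarcal1 and Smarca1 the ratios closest to 0. GC boxes on either strand are in capitals. The windows lie at chr9:21615919-21616168 on the plus strand for Smarca4, chr11:107132148-107132397 on the minus strand for Bptf, chr4:152338401-152338650 on the plus strand for Chd5, chr1:72583001-72583250 on the plus strand for Smarcal1 and chrX:47892614-47892863 on the minus strand for Smarca1.
Smarca4: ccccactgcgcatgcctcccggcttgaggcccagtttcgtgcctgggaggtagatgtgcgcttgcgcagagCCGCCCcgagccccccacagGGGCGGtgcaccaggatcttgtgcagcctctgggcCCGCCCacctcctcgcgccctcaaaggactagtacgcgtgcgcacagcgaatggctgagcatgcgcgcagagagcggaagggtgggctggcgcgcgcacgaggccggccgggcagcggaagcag
Bptf: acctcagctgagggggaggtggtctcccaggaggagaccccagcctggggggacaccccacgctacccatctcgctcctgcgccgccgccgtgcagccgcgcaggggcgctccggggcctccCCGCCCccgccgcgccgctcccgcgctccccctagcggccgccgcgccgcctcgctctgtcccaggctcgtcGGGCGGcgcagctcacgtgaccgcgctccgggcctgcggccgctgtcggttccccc
Chd5: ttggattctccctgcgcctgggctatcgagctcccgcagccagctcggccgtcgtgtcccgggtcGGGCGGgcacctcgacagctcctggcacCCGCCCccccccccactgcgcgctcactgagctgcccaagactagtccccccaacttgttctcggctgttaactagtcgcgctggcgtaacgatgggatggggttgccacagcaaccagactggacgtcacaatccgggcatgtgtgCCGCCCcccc
Smarcal1: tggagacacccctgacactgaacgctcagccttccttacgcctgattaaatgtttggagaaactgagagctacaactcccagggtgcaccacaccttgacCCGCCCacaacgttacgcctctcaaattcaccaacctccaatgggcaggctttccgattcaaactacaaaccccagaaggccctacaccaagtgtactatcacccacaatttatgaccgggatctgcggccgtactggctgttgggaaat
Smarca1: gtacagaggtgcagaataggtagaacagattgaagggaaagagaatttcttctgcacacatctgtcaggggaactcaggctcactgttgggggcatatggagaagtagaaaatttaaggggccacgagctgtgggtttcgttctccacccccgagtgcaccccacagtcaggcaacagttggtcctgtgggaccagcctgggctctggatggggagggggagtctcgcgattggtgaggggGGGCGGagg
The windows of Smarca4 and Chd5 hold 3 GC boxes each, that of Bptf 2, and those of Smarcal1 and Smarca1 1 each. CpG dinucleotides number 25 in Smarca4, 34 in Bptf, 21 in Chd5, 9 in Smarcal1 and 6 in Smarca1. The 5 windows were chosen by the genes' ratios, and the others do not follow the same order. Smarcc2, which met the same criteria and had a ratio of 0.33, holds 0 GC boxes, while Actl6a at -0.07 holds 3 and Smarcb1 at 0.04 holds 2. No relation between GC boxes and ratios is drawn from these windows.

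The ratios of the remodeler genes went with transcript length. The longest coding transcript of the 37 genes had a median of 6354 nt, against 3199 nt for the 12474 loci with a known length. Among all loci with a transcript of 6000 nt or longer, 27.3% were higher in affected than in control offspring and 53.7% higher than in unaffected offspring. Of the 21 remodeler genes of that length, 11 were higher than in control and 20 higher than in unaffected offspring. Their median log2 ratios were 0.33 and 0.49, and those of all 1778 such loci were 0.22 and 0.35. The 16 shorter remodeler genes had medians of 0.01 and -0.02, with 3 higher than in control, and 3 higher and 1 lower than in unaffected offspring.

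The same trend ran through the whole table. Loci with transcripts under 1000 nt had a median log2 ratio of -0.31 between affected and control offspring, and loci of 8000 nt or longer one of 0.24. Spearman's rho between length and ratio across the 37 genes was 0.62 for affected against control, 0.75 for affected against unaffected and -0.79 for unaffected against control. Across all loci it was 0.55, 0.64 and -0.53. Genes share their libraries and are not replicates, so these values carry no test. Transcript GC content had a rho of 0.03 with the affected to control ratio across the remodeler genes and of 0.19 across all loci.

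**Figure D3:**
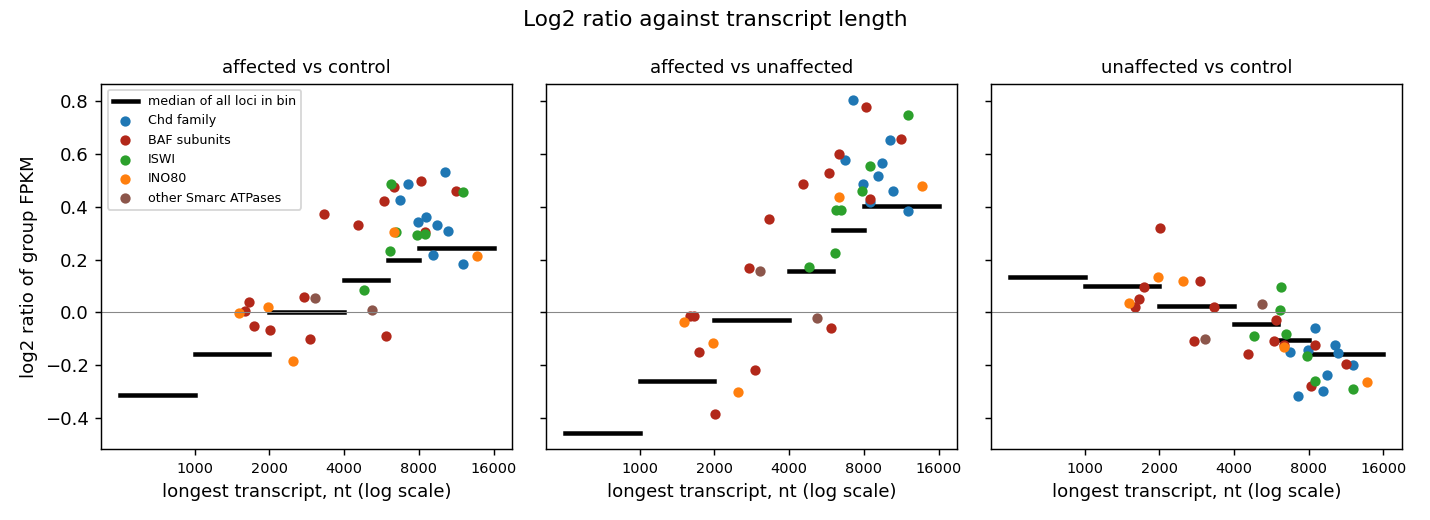
Log2 ratio of group FPKM against the length of the longest coding transcript (log axis) for the remodeler genes, coloured by role, in each of the 3 comparisons. Black bars mark the median of all loci per length bin, the outermost bins being open-ended; the bars climb with length in both comparisons of affected offspring, and most long remodeler genes sit on or above them.

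When the running median of the ratio over all loci, ordered by length, was subtracted, most of the calls ended. Only Smarcd1 was then past the fold limit in affected against control offspring, where 3.93% of all loci were higher. Chd3, Arid1a, Smarca4 and Smarcc2 were past it in affected against unaffected offspring, where 8.63% of all loci were higher. The medians of the 37 genes became 0.11 and 0.14, and 29 of 37 genes were above 0 in each comparison, where 49.9% of all loci with a length were. What sets the length trend was not tested.

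The outcome of this subtraction depends on the length that a gene is given. With the median length of a gene's coding transcripts in place of the longest, an alternative chosen after seeing the data, 6 genes were past the fold limit in affected against control offspring, where 6.13% of all loci were higher. They were Baz1a, Smarcd1, Chd7, Chd3, Smarcc1 and Chd2. Against unaffected offspring 10 were past it, beside 12.6% of all loci, namely the same 6 with Chd6, Chd8, Bptf and Arid1a. Under that choice 32 of 37 genes were above 0 in each of these comparisons. Genes with many short annotated transcripts moved most, such as Smarca2, at 5921 nt by its longest and 834 nt by its median transcript.

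**Figure D4:**
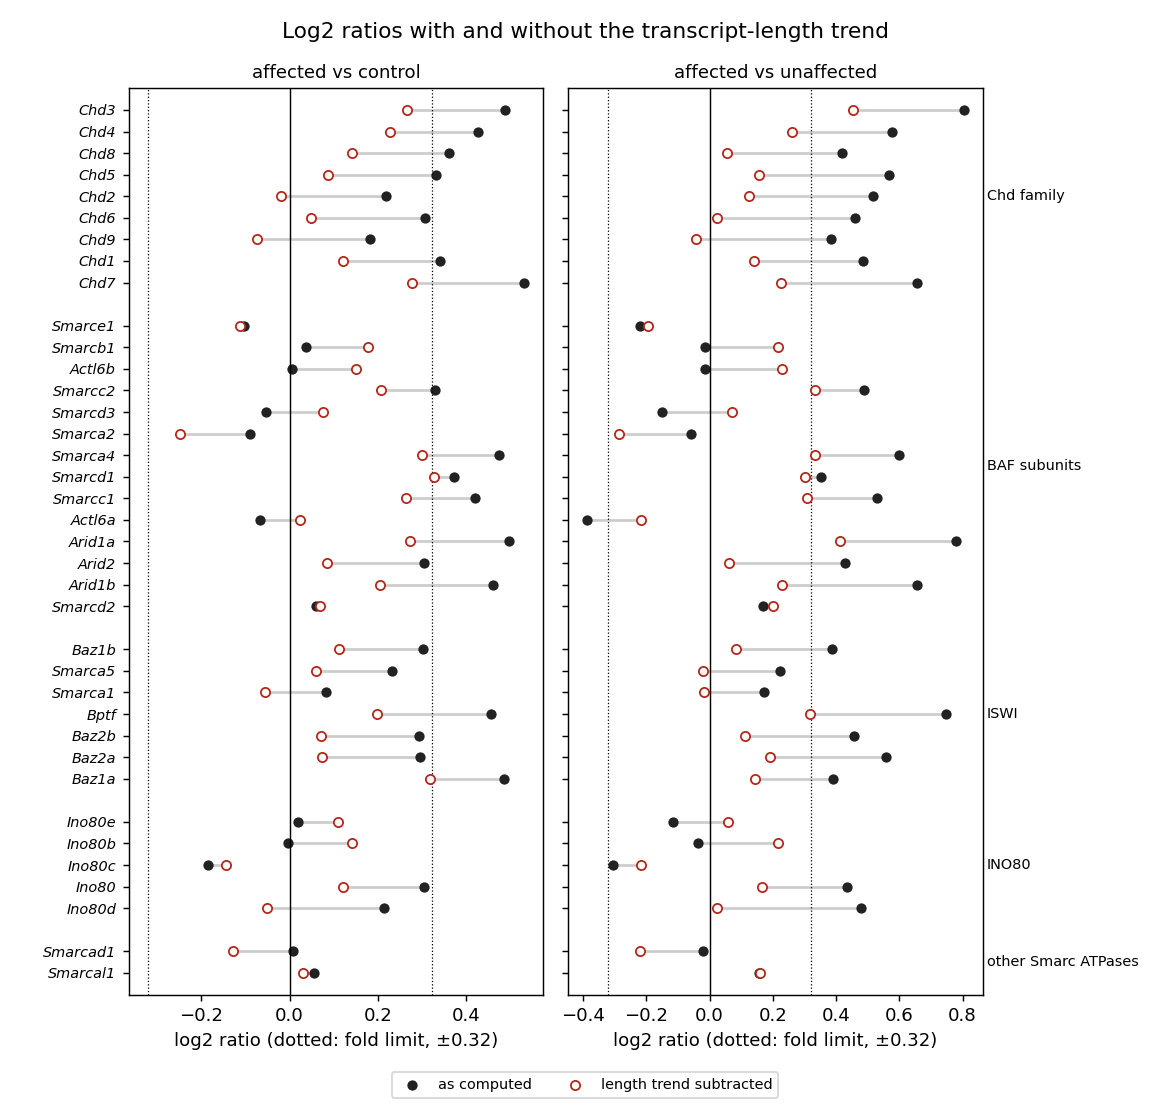
Log2 ratio of each remodeler gene as computed (filled) and after the transcript-length trend of all loci was subtracted (open), for affected against control and affected against unaffected offspring; dotted lines mark the fold limit. Long genes such as Chd9, Chd6 and Ino80d move to near 0, while the highest open points are Smarcd1, Baz1a and Smarca4 against control and Chd3, Arid1a and Smarca4 against unaffected, and Smarca2 lies on the low side; with median transcript lengths, which are not plotted, Chd6 stays at 0.35 against unaffected and Smarca2 lies at 0.07 and 0.20.

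The Chd genes were all above 0 in both comparisons of affected offspring. Of its 9 genes, 6 were higher in affected than in control offspring and 9 were higher than in unaffected offspring, with median log2 ratios of 0.34 and 0.52. Of all loci with transcripts of 6000 nt or longer, 27.3% and 53.7% were higher in these comparisons. With the length trend subtracted 0 and 1 of the 9 stayed past the fold limit, and 3 and 5 with median transcript lengths. In unaffected against control offspring the family's ratios ran from -0.32 to -0.06. All 9 transcripts were long, at 6697 to 12008 nt.

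Chd3, Chd4 and Chd5 encode the alternative ATPases of NuRD, which couples remodeling to histone deacetylation. Chd3 measured 66.6 FPKM in control fetuses, 53.5 in unaffected ones and 93.4 in affected ones, the affected value being the highest. Its log2 ratio was 0.49 against control and 0.80 against unaffected, the largest of the 37 genes in the latter comparison. With the length trend subtracted these became 0.27 and 0.45, and 0.41 and 0.70 with median transcript lengths.

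Chd4, which also works with Adnp in the ChAHP complex, measured 45.1, 40.6 and 60.6 FPKM in control, unaffected and affected offspring. Its log2 ratios in affected offspring were 0.43 against control and 0.58 against unaffected. The neuronal paralog Chd5 measured 9.10, 7.73 and 11.4 FPKM, and its log2 ratio of 0.33 against control lay close to the limit. Chd3 supplied 55.1%, 52.5% and 56.4% of their summed FPKM in control, unaffected and affected offspring, and Chd4 37.3%, 39.9% and 36.6%. The log2 ratio of Chd3 exceeded that of Chd4 by 0.06 against control and 0.23 against unaffected. The gap was 0.039 and 0.19 after subtraction of the length trend, and 0.21 and 0.49 with median transcript lengths.

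Chd6, Chd7, Chd8 and Chd9 form a further subfamily. Chd7, the gene mutated in CHARGE syndrome, measured 2.96 FPKM in controls, 2.72 in the unaffected and 4.28 in the affected group. Its log2 ratio of 0.53 against control was the largest of the 37 genes in that comparison, at one of the lowest levels. The ratio was 0.28 with the length trend subtracted, and 0.47 with median transcript lengths. Chd8, a gene recurrently mutated in autism, measured 14.3, 13.7 and 18.4 FPKM, with log2 ratios of 0.36 against control and 0.42 against unaffected. A noncoding gene on the opposite strand covers 8.41% of the exonic bases of Chd8, and the TruSeq kit used does not mark strand.

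Chd6 and Chd9 were past the fold limit against unaffected offspring alone. Chd6 measured 6.61, 5.94 and 8.17 FPKM in control, unaffected and affected offspring, and Chd9 5.78, 5.03 and 6.56 FPKM. Chd9, with a transcript of 12008 nt, had a log2 ratio of 0.38 against unaffected that went to -0.043 with the length trend subtracted and to 0.039 with median transcript lengths.

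Chd1 and Chd2 act at transcribed genes. Chd1 measured 5.30 FPKM in control fetuses, 4.79 in unaffected ones and 6.71 in affected ones, with log2 ratios of 0.34 and 0.49 in affected against control and unaffected. Chd2, which the table lists at a locus joined with the noncoding 1810026B05Rik, measured 7.28, 5.92 and 8.47 FPKM. Its ratio was 0.22 against control and 0.52 against unaffected, so that most of the latter comes with a low value in unaffected offspring.

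BAF subunits were divided. Of 14 genes, 6 were higher in affected than in control offspring, and 7 were higher and 1 was lower than in unaffected offspring. The shares over all loci were 12.6% higher against control, and 20.7% higher and 18.5% lower against unaffected. The median log2 ratios of the 14 were 0.18 and 0.26. After subtraction of the length trend 1 and 3 of the 14 stayed past the fold limit, and 2 and 3 with median transcript lengths. The genes higher against control were Arid1a, Smarca4, Arid1b, Smarcc1, Smarcd1 and Smarcc2. The core and actin-related subunits with short transcripts stayed within the fold limit of control.

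The alternative ATPases of the complex had unlike ratios. Smarca4 measured 80.03 FPKM in controls, 73.5 in the unaffected and 111 in the affected group. Smarca2 measured 104, 102 and 97.5 FPKM, lowest in affected offspring. Their log2 ratios against control were 0.48 and -0.09, a difference of 0.57, and against unaffected 0.60 and -0.06, a difference of 0.66. Their longest transcripts are 6376 and 5921 nt, and the differences were 0.55 and 0.62 with the length trend subtracted. With median transcript lengths, of 5880 and 834 nt, the differences were 0.19 and 0.073, so the contrast rests on which length is used. Smarca4 accordingly supplied 43.5% of the pair's summed FPKM in controls, 42.0% in the unaffected and 53.3% in the affected group, which makes it the more abundant of the pair in affected offspring alone.

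The Arid subunits define the type of complex, with Arid1a or Arid1b in canonical BAF and Arid2 in PBAF. Arid1a measured 23.8 FPKM in control fetuses, 19.6 in unaffected ones and 33.6 in affected ones, with log2 ratios of 0.50 against control and 0.78 against unaffected. Arid1b, mutated in Coffin-Siris syndrome, measured 9.002, 7.86 and 12.4 FPKM with ratios of 0.46 and 0.66. Arid1a held 72.5%, 71.4% and 73.1% of the sum of both in control, unaffected and affected offspring. Arid2 measured 11.2, 10.3 and 13.8 FPKM and was past the fold limit only against unaffected, at 0.43.

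Smarcc1 and Smarcc2 are the scaffold subunits on which the complex assembles. Smarcc1 measured 39.2 FPKM in controls, 36.4 in the unaffected and 52.5 in the affected group, with log2 ratios of 0.42 and 0.53 in affected against control and unaffected. Smarcc2 measured 98.2, 88.0 and 123 FPKM with ratios of 0.33 and 0.49. The share of Smarcc1 in their sum was 28.5%, 29.2% and 29.8%.

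The Smarcd subunits link the complex to transcription factors. Smarcd1 measured 63.0 FPKM in control fetuses, 63.9 in unaffected ones and 81.6 in affected ones, with the first 2 groups nearly level. Its log2 ratio was 0.37 against control and 0.35 against unaffected. With the length trend subtracted at its longest transcript of 3307 nt, it was 0.33 and 0.30, just past and under the limit. With its median transcript length of 712 nt it was 0.49 and 0.57. Genes that overlap it cover 13.8% of its exonic bases. Smarcd3 measured 101, 108 and 97.2 FPKM, with a ratio of -0.05 against control. Chpf2, on the opposite strand, covers 33.0% of its exonic bases. Smarcd2 was much scarcer at 5.51, 5.11 and 5.74 FPKM. The share of Smarcd1 in the sum of the 3 was 37.2% in controls, 36.1% in the unaffected and 44.2% in the affected group, and that of Smarcd3 59.5%, 61.0% and 52.7%. The log2 ratio of Smarcd1 exceeded that of Smarcd3 by 0.43 against control and 0.50 against unaffected, which became 0.25 and 0.23 after subtraction of the length trend, and 0.51 and 0.63 with median transcript lengths.

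Actl6a and Actl6b are the actin-related subunits of progenitor and neuronal BAF, respectively. Actl6b measured 106, 107 and 106 FPKM in control, unaffected and affected offspring, with ratios within 0.02 of 0 on the log2 scale. Loci of 1000 to 2000 nt had a median of -0.16 between affected and control offspring, and with the length trend subtracted Actl6b was at 0.15 against control and 0.23 against unaffected. Actl6a measured 29.1 FPKM in controls, 36.3 in the unaffected and 27.7 in the affected group, standing out in the unaffected group. It was the 1 gene lower in affected than in unaffected offspring, at a log2 ratio of -0.39, which became -0.22 after subtraction of the length trend and -0.12 with median transcript lengths, both under the limit. Its unaffected to control ratio of 0.3204 fell just short of the limit, which is 0.3219 before rounding. The share of Actl6a in the pair was 21.6%, 25.3% and 20.7%. Mrpl47 on the opposite strand covers 19.5% of the exonic bases of Actl6a. The markers of dividing cells had a median log2 ratio of 0.24 between unaffected and control offspring, and their part in the Actl6a value was not tested.

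The core subunits Smarcb1 and Smarce1 were within the fold limit in every comparison. Smarcb1, a tumour suppressor, measured 128 FPKM in control fetuses, 132 in unaffected ones and 131 in affected ones. Smarce1 measured 131, 142 and 122 FPKM, with log2 ratios of -0.10 and -0.22 in affected against control and unaffected. Smarcb1, at 1660 nt, was at 0.18 and 0.22 with the length trend subtracted, and Smarce1 at -0.11 and -0.19.

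**Figure D5:**
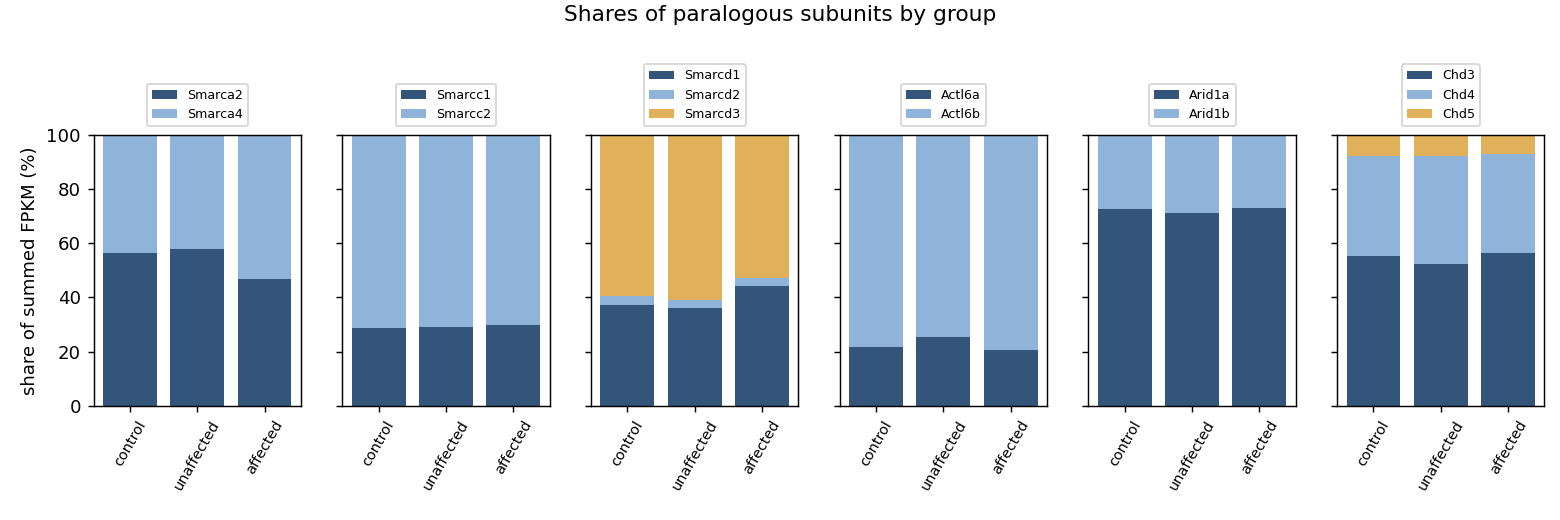
Share of each paralog in the summed FPKM of its set (vertical axis, percent), for 6 sets of alternative subunits in control, unaffected and affected offspring; bars are pooled values without error. Smarca4 goes from 43.5% of its pair in control to 53.3% in affected offspring and Smarcd1 from 37.2% to 44.2%, while the Smarcc, Arid1 and Chd sets stay within 3 percentage points of their control shares; the ratios behind the Smarca and Smarcd shares depend on transcript length.

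Of the 7 ISWI genes, 2 were higher in affected than in control offspring and 5 higher than in unaffected offspring, with median log2 ratios of 0.30 and 0.39. All but Smarca1 have transcripts of 6000 nt or longer, a length at which 27.3% and 53.7% of all loci were higher. None of the 7 stayed past the fold limit in either comparison after subtraction of the length trend, and 1 and 2 did with median transcript lengths. Before subtraction the ATPases Smarca5 and Smarca1 had lower ratios in affected offspring than the Baz genes and Bptf in both comparisons. After it, Smarca5 was at 0.06 and Smarca1 at -0.05 against control. Baz2b and Baz2a were then at 0.07 each, Baz1b at 0.11, Bptf at 0.20 and Baz1a at 0.317. Smarca5 measured 19.9, 19.99 and 23.3 FPKM in control, unaffected and affected offspring. Smarca1 measured 14.3, 13.5 and 15.2 FPKM. Their log2 ratios against control were 0.23 and 0.08, both within the fold limit.

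Bptf is the large histone-reading subunit of the NURF complex, which the ISWI ATPases drive. It measured 11.7 FPKM in controls, 9.55 in the unaffected and 16.0 in the affected group. The log2 ratio was 0.46 against control and 0.75 against unaffected. It was 0.20 and 0.319 with the length trend subtracted, the latter just under the limit, at a transcript of 12036 nt. With median transcript lengths the ratios of Bptf were 0.22 and 0.36. Baz1a, the accessory subunit of the ACF and CHRAC complexes, measured 1.87, 2.00 and 2.62 FPKM, with log2 ratios of 0.48 and 0.39. Baz1b, deleted in Williams syndrome, measured 23.6, 22.2 and 29.1 FPKM and had a log2 ratio of 0.30 against control, just under the limit.

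Baz2a and Baz2b, which pair with ISWI ATPases, were past the fold limit against unaffected offspring. Baz2a, a component of the nucleolar remodeling complex, measured 5.08, 4.24 and 6.24 FPKM in control, unaffected and affected offspring, with a log2 ratio of 0.56 against unaffected. Baz2b measured 5.47, 4.88 and 6.71 FPKM with a ratio of 0.46. Both were within the limit against control at log2 ratios of 0.30 and 0.29.

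In the INO80 complex, 0 of 5 genes were higher than in control, where 12.6% of all loci were. Of the 5, 2 were higher than in unaffected offspring, where 20.7% of all loci and 53.7% of those of 6000 nt or longer were. Neither of the 2 stayed past the fold limit after subtraction of the length trend, with either transcript length. The ATPase Ino80 measured 3.29 FPKM in control fetuses, 3.00 in unaffected ones and 4.06 in affected ones, with log2 ratios of 0.30 and 0.44. Ino80d measured 1.82, 1.52 and 2.12 FPKM with a ratio of 0.48 against unaffected. These are the 2 genes of the complex with long transcripts, of 6354 and 13675 nt.

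The small INO80 subunits were within the fold limit. Ino80b measured 22.03, 22.56 and 21.98 FPKM in control, unaffected and affected offspring, and Ino80e 45.7, 50.2 and 46.3 FPKM. Ino80c measured 14.8, 16.1 and 13.0 FPKM, the lowest ratio of the 37 genes against control at -0.18 on the log2 scale. Other genes cover 43.0% of the exonic bases of Ino80e, mostly Doc2a on the opposite strand, and their reads cannot be told apart without strand. After subtraction of the length trend Ino80b was at 0.14 and 0.22 against control and unaffected, Ino80e at 0.11 and 0.058, and Ino80c at -0.14 and -0.22.

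Smarcad1, a remodeler of heterochromatin at replication, and Smarcal1, an annealing helicase at stalled forks, are Snf2-type ATPases outside the large complexes. Smarcad1 measured 21.2, 21.6 and 21.3 FPKM in control, unaffected and affected offspring, with a log2 ratio of 0.01 against control at a transcript of 5168 nt. Smarcal1 measured 8.89, 8.29 and 9.24 FPKM with a ratio of 0.06. Neither was past the fold limit in any comparison.

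Unaffected offspring showed small ratios against control that mostly pointed down. Of the 37 genes 25 were below 0, where 7462 of all 15455 loci were. The lowest were Chd3 at -0.32, Chd2 at -0.30, Bptf at -0.29 and Arid1a at -0.28 on the log2 scale. The highest was Actl6a. The long remodeler genes had a median of -0.15 and all loci of 6000 nt or longer one of -0.12, and the median of the 37 genes was -0.03 with the length trend subtracted.

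Partner genes were followed from lists outside the rule. The lists hold subunits of these complexes and also 14 other Snf2-family ATPases, which are counted as partners here without being subunits. Of 75 partner genes with a mean FPKM of at least 1, 11 were higher and 2 lower in affected than in control offspring, and 18 were higher and 6 lower than in unaffected offspring. The higher genes were 14.7% and 24% of the partners, close to the 12.6% and 20.7% of all loci, and the lower genes 2.67% and 8%, beside 11.5% and 18.5%. The medians were 0.10 and 0.07. The 16 partners with transcripts of 6000 nt or longer held 9 of the 11, and their median log2 ratio was 0.32 against control, where that of the 59 shorter partners was 0.06. With the length trend subtracted, 1 partner was higher and 2 lower against control, and 5 higher and 2 lower against unaffected. Against control these were Rad54l at 0.36, Rbbp4 at -0.37 and Actr6, of which Rad54l and Rbbp4 are named after their values were seen. All the partners named below as higher than in control were under the fold limit there after subtraction, at log2 ratios from 0.09 for Rad54l2 to 0.28 for Bahcc1, and Gltscr1, at 0.40, was past it against unaffected.

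The counts by complex are small and are to be read against the same 12.6% higher and 11.5% lower over all loci. The BAF and PBAF partners had 3 of 17 genes higher and 0 lower in affected than in control offspring. Those past the fold limit against both other groups were Pbrm1, the defining PBAF subunit, Bcl11b, a zinc-finger factor of deep-layer cortical neurons, and Gltscr1, a subunit of noncanonical BAF. Bcl11b measured 32.7 FPKM in controls, 28.2 in the unaffected and 45.5 in the affected group, a log2 ratio of 0.47 against control. Pbrm1 and Gltscr1 had ratios of 0.34 and 0.39.

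NuRD and ChAHP partners had 2 of 14 genes higher and 0 lower against control. These were Gatad2b, a structural subunit of NuRD, at a log2 ratio of 0.42, and Pogz, a zinc-finger heterochromatin protein, at 0.32. Of the 6 genes listed as ISWI partners 2 were higher and 0 lower, Cecr2 at 0.40 and Bahcc1 at 0.54.

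INO80, SRCAP and TIP60-p400 partners had 2 of 24 genes higher and 2 lower. The higher genes were the giant ATPase Ep400 at a log2 ratio of 0.48 and the scaffold Trrap at 0.44. The lower genes were Actr6, an actin-related subunit of SRCAP, and Morf4l1, a chromodomain subunit of TIP60. Actr6 measured 24.4 FPKM in control fetuses, 25.1 in unaffected ones and 16.6 in affected ones, a log2 ratio of -0.55 against control, and -0.41 with the length trend subtracted. Morf4l1 measured 172, 182 and 136 FPKM with a ratio of -0.34, which became -0.23 and under the limit. Of 14 other Snf2-family ATPases 2 were higher and 0 lower, and Rad54l2 was past the fold limit against both other groups, at 0.32 and 0.40.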

How the data were processed

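Cortical RNA of 9 fetuses was sequenced from TruSeq libraries. For alignment to mm10 the paper's methods give STAR in one place and Bowtie/TopHat in another, and the submitters' processing notes list Bowtie2 2.2.4.0, Cufflinks and Cuffdiff. The authors deposited 1 FPKM value per group and locus, pooled over the 3 fetuses of a group by Cuffdiff; 0 columns hold single fetuses, and read depth is not in the table. The deposited table also holds the authors' own fold change, test statistic, p-value and q-value per comparison, which were not used.

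Here log2 ratios of group FPKM were computed without a pseudocount for loci with a mean FPKM of at least 1 and a value above 0 in every group (Python 3.11.15, pandas 2.3.3). No test could be computed from the pooled values, and a log2 ratio of 0.32 served as the fold limit for description. Because FPKM of a joined locus cannot be divided, Chd2 carries the value of its joined locus. Locus starts count from 0 and 1 was added. Transcript lengths are those of the longest coding transcript in GENCODE, found by name for 80.7% of loci. The trend is a running median over loci ordered by length, and its removal was tested on simulated data. Every gene matched by the rule may be named, and marker genes are named by their lists. Values of single partner genes are given only where past the fold limit against both other groups, except for Rad54l and Rbbp4. Members, gene lists and alternatives were chosen with earlier results of these data known, and the groups follow the sample labels. Alternatives were other fold limits, FPKM limits, a pseudocount, centring on the median of all loci, sums over loci, and removal of the length trend.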

Additional observations from a re-analysis of the deposited data

How the results depend on the processing

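No paired analysis was possible because the deposited table holds 1 pooled value per group; leaving out single fetuses could not be run for the same reason. At a fold limit of 1.5, 0 remodeler genes were higher in affected than in control offspring, and 6 were higher and 0 lower than in unaffected offspring. At a limit of 1.1, 24 were higher and 1 lower than in control, and 27 were higher and 4 lower than in unaffected offspring. At that limit 1 was higher and 14 lower in unaffected than in control offspring. Shares over all loci at these other limits are not given, so these counts stand without a background. With the length trend subtracted, 1 gene was higher than in control at a median log2 ratio of 0.11, and 4 were higher and 0 lower than in unaffected offspring at a median of 0.14. The log2 ratio of Chd9 against unaffected turned to -0.043, and was 0.039 with median transcript lengths. With the median in place of the longest transcript length, an alternative chosen after seeing the data, 6 genes were higher than in control at a median of 0.12. In that setting 10 were higher and 0 lower than in unaffected offspring, with a median of 0.20, and 1 was lower in unaffected than in control offspring. The cause of the length trend was not tested. In unaffected against control offspring 1 gene was lower without an FPKM limit, which was Smarca5-ps, and 1 was lower after centring, which was Chd3. Centring left 11 genes higher than in control, and a pseudocount of 1 left 12 higher than in control and 21 higher than in unaffected offspring. Centring subtracts a constant of at most 0.02 per comparison, and each gene has 1 locus to sum. All 111 single ratios therefore moved by less than 0.1 in both settings, which says nothing about their stability. With a pseudocount of 1, 106 of the 111 moved by less than 0.1. With the length trend subtracted 33 did so, 77 moved by more and 1, that of Chd9, turned from a called value to the other sign, and with median transcript lengths 44 did so and 67 moved by more. Depth is unknown, and replicate error was not estimated because the authors' test columns were not used. How small a difference these data can show was therefore not assessed.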
